A study of Arabidopsis with 8 samples.

Results

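The response of Sha leaves to salt was measured by comparing 2 arrays of Sha salt with 2 arrays of Sha control, which are 4 of the 8 arrays of the series. Sha is a natural ecotype of Arabidopsis thaliana, and all 4 samples carried its genome with no transgene or mutation named in the labels. At an age of 10 days the seedlings were placed on MS plates without NaCl (Sha control) or with 100 mM NaCl (Sha salt), and leaves were harvested 4 days later, each sample pooling the leaves of 30 or more seedlings. The other 4 arrays held leaves of the Ler ecotype, 2 without and 2 with the same salt, and they were used here to estimate the spread and to test where the Sha response differed. The labels give 12 h of light with 22 or 18 °C, while the methods of the study give 16 h and 23 °C. Every probe that Feature Extraction marked as well above background on both arrays of Sha control or on both arrays of Sha salt was tested, which gave 34020 of 43572 probes, and 29342 of these were matched to 21198 loci.

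Excess salt limits water uptake and lets sodium build up in leaves, and plants answer with the hormone abscisic acid (ABA). ABA binds PYR/PYL receptors, which then block clade A protein phosphatases (PP2C), so that SnRK2 kinases are released to activate ABF/ABI5 transcription factors. Genes with ABA-responsive promoters include those of LEA proteins and dehydrins, which protect cell structures when water is short, while genes of growth and photosynthesis are often less expressed.

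Levels are given as log2 of the signal relative to the array's 75th percentile, so that 0 is the signal of a fairly bright probe and each step of 1 is a doubling. On the 4 Sha arrays between 75.9% and 79.0% of the spots that are not controls were well above background, and the 75th percentile was between 82.9 and 136.2 times the local background. The median SD between the 2 replicates was 0.08 for Sha control and 0.09 for Sha salt. Replicate 1 of control and salt shared a slide, as did replicate 2. The Ler arrays were on other slides than the Sha arrays, so a level difference between the ecotypes may include one between slides. Sequence differences between the ecotypes under the probes were not checked. Leaf identity was checked with 5 mesophyll genes, which were all well above background on the 4 arrays and summed to between 306 and 496 times the 75th percentile. Markers of root hairs (9 genes) and of other root cells (10 genes) were also well above background on all 4 arrays, so that the labelled leaves held RNA of genes known from roots, and their values stand beside the results they move with. In such bulk samples, fewer cells of a type and less RNA per cell cannot be told apart.

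After salt treatment, 5054 probes were up-regulated and 5577 down-regulated in Sha, which is 14.9% and 16.4% of the probes tested. A call required an adjusted p under 0.05 (limma, Benjamini-Hochberg over the 34020 probes) together with a change of more than 2-fold, and 31.2% of the probes met both. When each locus was represented by its brightest probe, 2985 loci were up-regulated (14.1%) and 3830 down-regulated (18.1%), and the median log2 change over all loci was -0.10. All 10631 called probes changed in the same direction on both slides, which the call, made on the same arrays, largely ensures. The control and salt arrays did not overlap at 83.8% of the tested probes and 86.9% of the loci. Rises reached further than falls: 618 called probes rose by more than 4 on the log2 scale and 203 fell by as much, while 163 rose and 0 fell by more than 6. Of the 163, 48 rose by more than 8. The level of 677 probes was at background on both control arrays, and 648 of these were called up-regulated, whereas 498 were at background on both salt arrays, and 420 of these were called down-regulated. Of 6274 loci with several tested probes, all probes gave the same call at 5554, and 6 loci had probes called in opposite directions. Among 351 probes of RefSeq non-coding RNA accessions, 89 were up-regulated and 54 down-regulated.

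**Figure D1:**
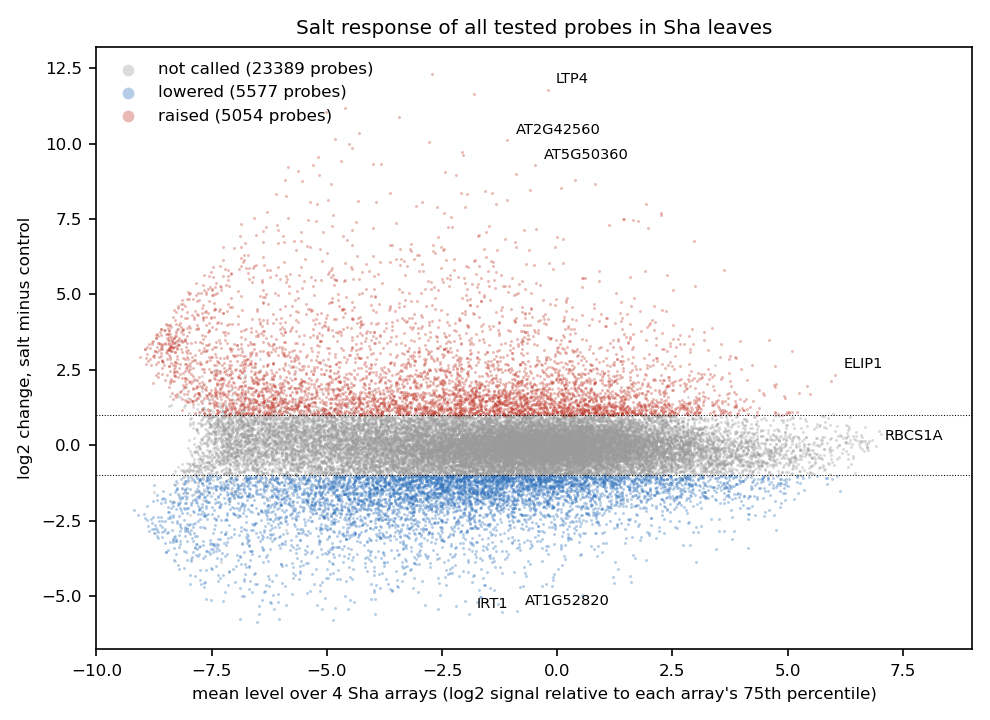
Log2 change after salt (y axis) against the mean level over the 4 Sha arrays (x axis, log2 signal relative to each array's 75th percentile) for the 34020 tested probes, with the 5054 up-regulated probes in red, the 5577 down-regulated in blue and the rest in grey; dotted lines mark 2-fold. Rises extend to 12.30 at a probe of AT5G05220 whose control signal was at background, whereas no fall passes 6.

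Among probes with a measurable signal in both groups, LTP4 (AT5G59310) rose the most, a lipid transfer protein of a family of small secreted proteins that carry lipids. Its level was -6.06 and -6.15 on the control arrays and 5.78 and 5.59 on the salt arrays. Both salt arrays were far above both control arrays. It rose 3552-fold (log2 change 11.79, SE 0.09, limma adjusted p = 2.1e-07). LTP3 (AT5G59320), its neighbour in the family, stood at -5.06 and -4.58 on the control arrays and 3.71 and 3.55 on the salt arrays at 1 of its 2 probes (log2 change 8.45, SE 0.18, limma adjusted p = 7.6e-07), again with no overlap. Probe sequences were not used here, so cross-hybridization between such close family members was not checked. AT5G05220, which has no gene symbol in the annotation used, had levels of -7.55 and -7.72 on the control arrays and 4.05 and 3.96 on the salt arrays (log2 change 11.64, SE 0.09, limma adjusted p = 2.1e-07). TSPO (AT2G47770), a membrane protein known to be induced by ABA, was at -3.48 and -3.56 on the control arrays and 5.39 and 4.92 on the salt arrays (log2 change 8.68, SE 0.16, limma adjusted p = 5.9e-07).

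Enzymes of specialized metabolism and a cellulose synthase-like gene were also among the 12 largest rises. BSMT1 (AT3G11480), which makes methyl salicylate, was at -6.99 and -6.72 on the control arrays and 2.74 and 2.82 on the salt arrays (log2 change 9.63, SE 0.11, limma adjusted p = 3.3e-07). CSLG2 (AT4G24000), a cellulose synthase-like protein, was at -7.0 and -6.85 on the control arrays and 2.7 and 2.91 on the salt arrays (log2 change 9.73, SE 0.12, limma adjusted p = 3.4e-07). NATA1 (AT2G39030), an acetyltransferase that acts on ornithine, was at -5.46 and -5.30 on the control arrays and 3.68 and 3.53 on the salt arrays (log2 change 8.98, SE 0.09, limma adjusted p = 2.5e-07). In all 3 the control arrays were near the dim end of the array and the salt arrays were well above the 75th percentile, with no overlap. The remaining members of the 12 were loci without a symbol, namely AT2G42560 (10.12), AT5G50360 (9.30), AT2G35070 (9.07), AT2G38240 (8.98) and AT3G17520 (8.81). AT2G42560 had the widest SE of these (1.16); its Sha arrays were at -6.16 and -6.13 on the control arrays and 4.09 and 3.87 on the salt arrays, while the Ler control arrays, which enter the same estimate of spread, were at -3.95 and -7.98.

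Probes at background on both control arrays give only a lower limit of the rise. A second probe of AT5G05220 rose at least 3216-fold, taking the lowest signal that counts as well above background in place of the control signal. AT3G03620 rose at least 1197-fold (limma adjusted p = 7.6e-07) and UGT76E12 (AT3G46660), a UDP-glucosyltransferase, at least 543-fold (adjusted p = 5.3e-07). The limits were 421-fold for AT5G46610, 412-fold for AT5G43770 and 353-fold for the second probe of CSLG2.

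Of probes with signal above background on every Sha array, the one that fell furthest was that of IRT1 (AT4G19690), the main transporter for iron uptake in the root epidermis. Its level was 0.87 and 0.87 on the control arrays and -4.71 and -4.73 on the salt arrays. The replicates lay close together and the groups far apart, a 48.4-fold fall (log2 change -5.60, SE 0.09, limma adjusted p = 4.3e-07), and its other probe fell by 5.52. CYP82C4 (AT4G31940), a cytochrome P450 that makes an iron-mobilizing coumarin, was at -2.26 and -1.98 on the control arrays and -7.15 and -7.88 on the salt arrays (log2 change -5.39, SE 0.25, limma adjusted p = 8.2e-06). Both genes are known from iron-deficient roots, and 8 of 9 root hair markers fell as well, their summed signal dropping from 6.55 and 6.97 times the 75th percentile to 1.48 and 1.53. Their part in these falls was not tested. ATCSLB05 (AT4G15290), another cellulose synthase-like gene, was at -1.07 and -1.24 on the control arrays and -6.78 and -6.70 on the salt arrays (log2 change -5.58, SE 0.13, limma adjusted p = 9.9e-07). CYP712A1 (AT2G42250) was at 2.01 and 1.90 on the control arrays and -3.17 and -3.32 on the salt arrays (log2 change -5.20, SE 0.09, limma adjusted p = 5.4e-07), and its relative CYP712A2 (AT5G06905) fell by 5.11. The other members of the 12 largest falls had no symbol and were AT1G52820 (-5.50), AT2G26695 (-5.43), AT2G39040 (-5.34), AT1G19900 (-5.31), AT1G52060 (-5.25), AT3G19430 (-5.19) and AT4G37700 (-5.14). Falls to background on both salt arrays were smaller as limits: AT1G06120 fell at least 27.1-fold, GRP20 (AT5G07560), a glycine-rich protein, at least 21.9-fold, and AT3G62950, LPAT3 (AT1G51260), AT1G29430 (SAUR62) and AT1G14185 between 19.3-fold and 20.5-fold as limits. These 6 probes were no longer called after normexp background correction.

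**Figure D2:**
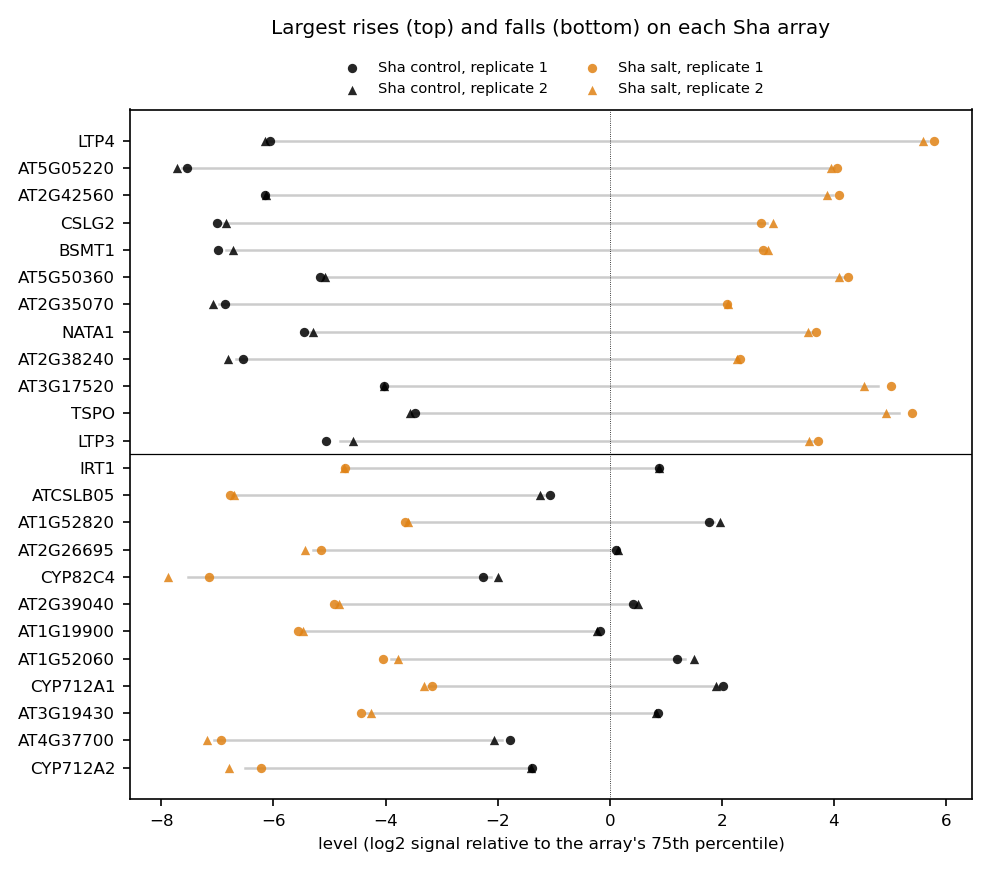
Level on each of the 4 Sha arrays (x axis, log2 signal relative to the array's 75th percentile) for the 12 largest rises (top) and 12 largest falls (bottom) of probes with signal above background on every Sha array; circles are replicate 1, triangles replicate 2, black control, orange salt, and grey lines join the group means. The groups do not overlap at any of the 24 genes, which follows from choosing them by their change on these arrays. Of all tested probes, 83.8% do not overlap. LTP4 spans the widest range, from -6.15 to 5.78.

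The probes with the highest signals, among those matched to a locus, are given with their signals as such, which are not compared as amounts of RNA. RBCS1A (AT1G67090), the small subunit of Rubisco, had the highest signal in the absence of salt, with levels of 7.18 and 6.69 on the control arrays and 7.05 and 6.74 on the salt arrays (log2 change -0.04, SE 0.24, adjusted p = 0.9). The next were the antenna genes LHCA1, at 7.10 and 6.74 on the control arrays and 6.0 and 5.97 on the salt arrays (log2 change -0.93, not called, although its other 4 probes were, at -1.85 to -1.13), and LHCB6, at 7.0 and 6.78 on the control arrays and 5.49 and 5.25 on the salt arrays (log2 change -1.52, SE 0.19, limma adjusted p = 0.00066). On the salt arrays the highest signals were those of ELIP1 (AT3G22840), an early light-induced protein of thylakoids, at 4.87 and 4.84 on the control arrays and 7.43 and 6.96 on the salt arrays (log2 change 2.34, SE 0.17, limma adjusted p = 4.8e-05), and NSP5 (AT5G48180), which directs glucosinolate breakdown to nitriles, at 4.90 and 4.85 on the control arrays and 7.19 and 6.8 on the salt arrays (log2 change 2.12, SE 0.15, limma adjusted p = 5.2e-05). UBQ10, a polyubiquitin gene, was the next, with a log2 change of 0.60 at that probe that was not called (adjusted p = 0.095), while 7 of its 11 probes were up-regulated, by 1.02 to 1.46.

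Genes were next described by process in 47 lists and 17 gene families, where the background for a count is the 14.1% of all loci up-regulated and the 18.1% down-regulated, with a median log2 change of -0.10. Among these 64 the highest median was that of the clade A PP2C list (4.12) and the lowest that of aliphatic glucosinolate synthesis (-1.76). These counts and medians are descriptions of the lists, and no test was run over a list as a whole. Members and lists were chosen with earlier results of these data known, so that high shares may partly follow from the choice.

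**Figure D3:**
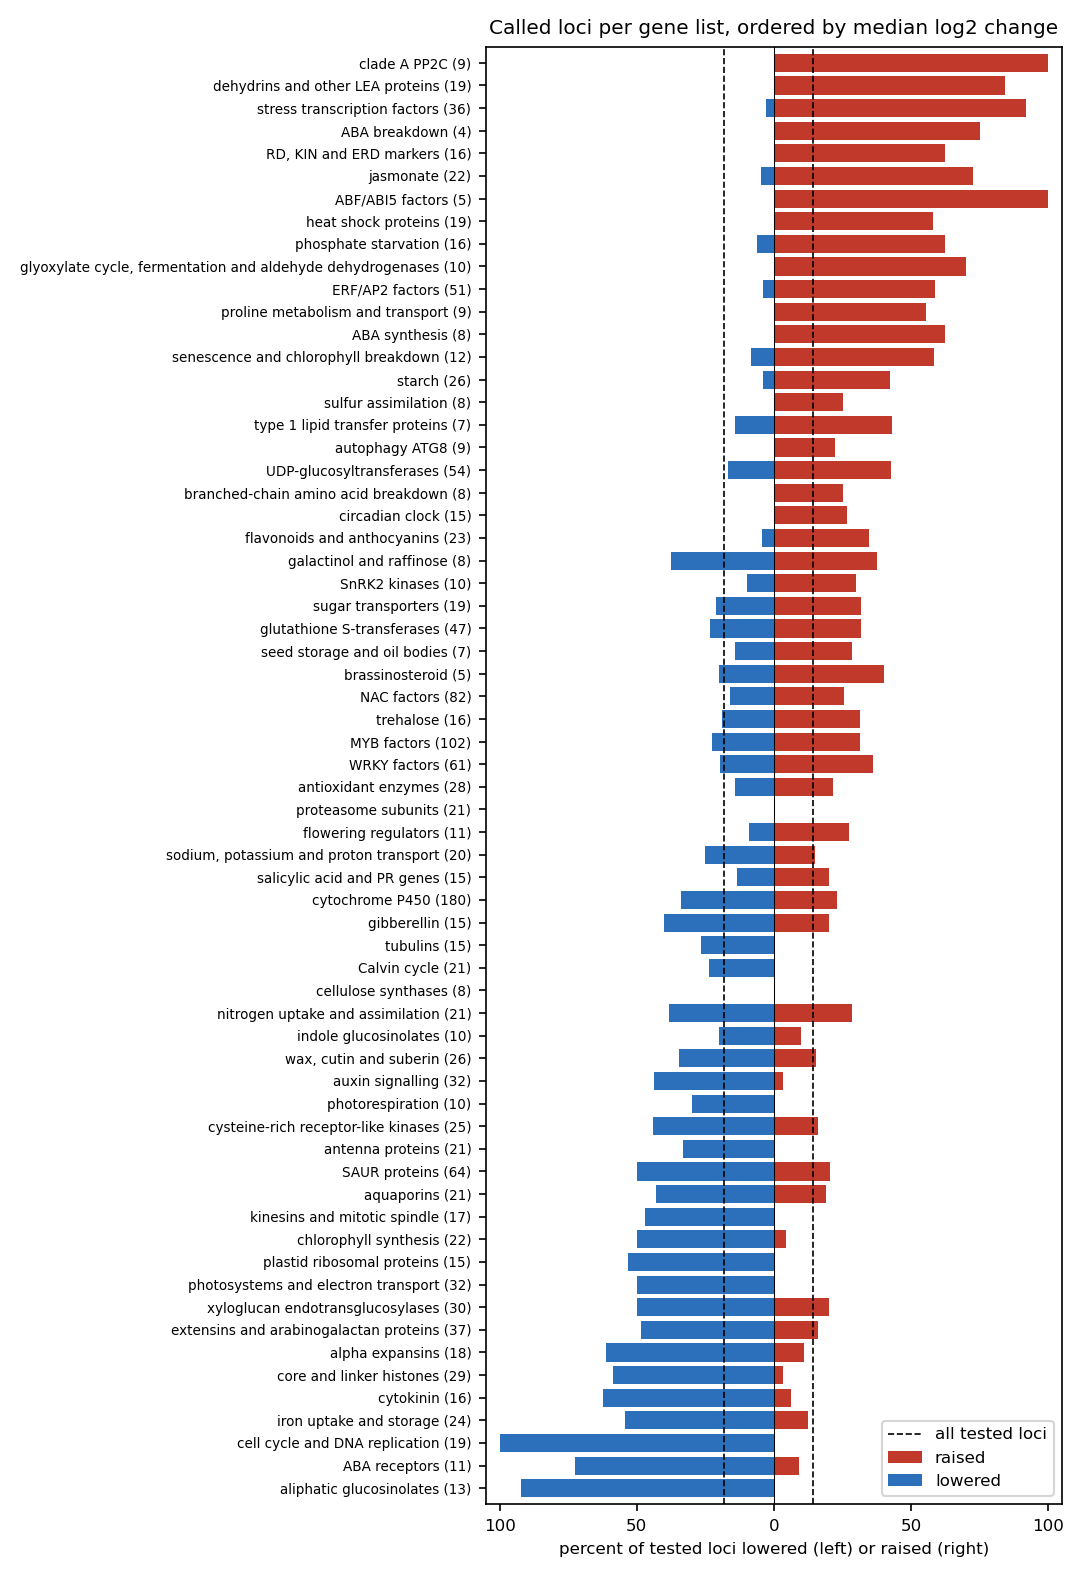
Percent of the tested loci of each list that were up-regulated (red, right) or down-regulated (blue, left) after salt in Sha, with the number of tested loci in brackets and lists ordered by their median log2 change; dashed lines mark the shares over all tested loci (14.1% and 18.1%). All 9 loci of clade A PP2C were up-regulated and all 19 loci of the cell cycle list were down-regulated, while no locus of the proteasome and cellulose synthase lists was called.

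In the ABA pathway, genes of the phosphatases rose while most receptor genes fell. Of 11 tested PYR/PYL receptor loci 8 were down-regulated and 1 up-regulated, and of 9 clade A PP2C loci all were up-regulated. The receptor log2 changes ran from -4.215 to 1.425, and the loci at either end are not named here. On both salt arrays 10 of the 11 receptor loci were well above background. PYL4 (AT2G38310), a receptor known for links to jasmonate, was at 0.93 and 1.09 on the control arrays and -1.91 and -1.78 on the salt arrays (log2 change -2.86, SE 0.11, limma adjusted p = 4.4e-06), and PYL2 (AT2G26040, -2.46), PYL5 (AT5G05440, -1.80) and PYL8 (AT5G53160, -1.75) were among the other falls. HAI3 (AT2G29380), which like the other clade A phosphatases represses ABA signalling, was at -5.83 and -6.08 on the control arrays and 2.04 and 1.84 on the salt arrays (log2 change 7.90, SE 0.12, limma adjusted p = 4.2e-07). AHG1 (AT5G51760), a phosphatase known mainly from seeds, was at -7.62 and -7.43 on the control arrays and -2.0 and -2.12 on the salt arrays (log2 change 5.47, SE 0.31, limma adjusted p = 1.9e-05). HAB2 (AT1G17550) had the smallest rise of the list (1.45) and ABI1 (AT4G26080) the next (2.15). SnRK2 kinase genes went both ways: SNRK2.7 (AT4G40010, 2.3), OST1 (AT4G33950, 1.98) and SNRK2.9 (AT2G23030, 1.36) rose and SNRK2.5 (AT5G63650, -2.16) fell, while the ABA-activated SNRK2.2 and SNRK2.3 had log2 changes of 0.71 and 0.59 that did not pass the 2-fold limit. OST1, the kinase known for closing stomata, was at -5.36 and -5.74 on the control arrays and -3.40 and -3.74 on the salt arrays (log2 change 1.98, SE 0.20, limma adjusted p = 0.00023). All 5 tested genes of the ABF/ABI5 factors rose, led by ABI5 (AT2G36270), a factor best known from seeds, which was at -5.01 and -5.09 on the control arrays and -0.79 and -0.83 on the salt arrays (log2 change 4.24, SE 0.09, limma adjusted p = 7.7e-07). ABF3 (1.03) and ABF4 (1.05) were just past the limit, and ABF3 was not called without Sha salt replicate 1, at 0.99.

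Of the tested genes, 5 of 8 for ABA synthesis and 3 of 4 for ABA breakdown rose. NCED3 (AT3G14440), the enzyme of the rate-limiting cleavage step in stressed leaves, was at -3.72 and -3.63 on the control arrays and 1.43 and 1.77 on the salt arrays (log2 change 5.27, SE 0.16, limma adjusted p = 1.9e-06). AAO3 (AT2G27150), which oxidizes abscisic aldehyde to ABA, was at 0.49 and 0.25 on the control arrays and 3.04 and 2.94 on the salt arrays (log2 change 2.62, SE 0.13, limma adjusted p = 1e-05). ABA1 and ABA2 of the synthesis list differed from these, with log2 changes of -0.23 and -0.13 that were not called. Among the CYP707A hydroxylases that inactivate ABA, CYP707A1 (AT4G19230, 4.35), CYP707A4 (AT3G19270, 3.40) and CYP707A3 (AT5G45340, 1.12) rose, while CYP707A2 had a log2 change of -0.27 and was not called.

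LEA and dehydrin genes rose in 16 of 19 tested loci, with a median log2 change of 3.49, and none fell. LEA4-5 (AT5G06760) had levels of -5.34 and -5.34 on the control arrays and 2.68 and 2.65 on the salt arrays (log2 change 8.0, SE 0.07, limma adjusted p = 2.1e-07). LEA7 (AT1G52690) was at -1.68 and -1.52 on the control arrays and 6.26 and 5.91 on the salt arrays (log2 change 7.69, SE 0.13, limma adjusted p = 4.6e-07). EM6 (AT2G40170) and EM1 (AT3G51810), which are known as seed proteins, rose by 7.13 and 6.51. Levels of LEA4-5 and LEA7 on the salt arrays were thus far above those on any control array. The 3 members that were not called were the dehydrins COR47 (0.86), ERD14 (0.35) and HIRD11 (0.16). COR47 was at 5.02 and 4.86 on the control arrays and 6.05 and 5.55 on the salt arrays, and it was called after quantile normalization (1.03) or without Sha salt replicate 2 (1.11). Of 16 RD, KIN and ERD stress markers, 10 rose and 0 fell, led by LTI65 (RD29B, AT5G52300), a marker of ABA-dependent expression, which was at -6.17 and -6.06 on the control arrays and 2.1 and 2.33 on the salt arrays (log2 change 8.33, SE 0.16, limma adjusted p = 6.9e-07). RD20 (AT2G33380), a calcium-binding caleosin, was at -0.94 and -1.05 on the control arrays and 4.98 and 4.61 on the salt arrays (log2 change 5.79, SE 0.15, limma adjusted p = 1.1e-06). Lipid transfer protein genes of type 1 were mixed, as LTP2 (AT2G38530, 5.30) rose with LTP3 and LTP4, LTP7 (AT2G15050, -1.23) fell (not called after normexp background correction), and LTP1, LTP5 and LTP6 lay between -0.45 and 0.65 and were not called.

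Seed storage and oil body genes did not follow the LEA genes. Of 7 tested loci, OLEO2 (AT5G40420) and OLEO1 (AT4G25140), oleosins of oil bodies, rose by 4.04 and 1.21, the latter not called after normexp background correction, at 0.98. SESA3 (AT4G27160), a 2S albumin, fell by 1.63, which was also not called with normexp, at -0.97. The cruciferin CRU3 was at -2.11 and -1.90 on the control arrays and -2.15 and -1.91 on the salt arrays. Its groups overlapped, with a log2 change of -0.02 that is smaller than the spread between replicates.

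Of 36 stress transcription factors, 33 were up-regulated and 1, AZF1 (AT5G67450), was down-regulated, the latter not after normexp, with a median log2 change of 3.42. These factors were listed by hand with earlier results of these data known, so their high share may partly follow from the choice. DDF1 (AT1G12610), an AP2-type factor of the CBF/DREB1 group, was at background on both control arrays and rose at least 54.4-fold (adjusted p = 1.7e-06). NAC019 (AT1G52890), a NAC factor of ABA and jasmonate responses, was at -3.39 and -3.20 on the control arrays and 3.49 and 3.63 on the salt arrays (log2 change 6.85, SE 0.11, limma adjusted p = 4.5e-07). By family, 30 of 51 ERF/AP2 factors rose and 2 fell, against 22 and 12 of 61 WRKY factors, 32 and 23 of 102 MYB factors and 21 and 13 of 82 NAC factors. The leading WRKY factor was WRKY30 (AT5G24110, 5.66), the leading MYB factors were MYB121 (AT3G30210, 6.63) and MYB102 (AT4G21440, 6.45), and RD26 (AT4G27410), a NAC factor of the ABA response, was at -0.21 and -0.24 on the control arrays and 4.59 and 4.22 on the salt arrays (log2 change 4.63, SE 0.15, limma adjusted p = 2.3e-06). ERF1 (AT3G23240), an ERF factor of the joint ethylene and jasmonate response, was at -6.22 and -6.16 on the control arrays and 0.15 and 0.06 on the salt arrays (log2 change 6.29, SE 0.11, limma adjusted p = 4.7e-07). The shares of WRKY, MYB and NAC factors that fell (19.7%, 22.5% and 15.9%) were near the 18.1% of all loci, and with normexp 6, 14 and 7 of these factors fell. The median of ERF/AP2 factors was 1.37. Heat shock protein genes rose in 11 of 19 loci and fell in 0, and the 4 largest rises were of small heat shock proteins, which keep unfolded proteins from clumping. HSP21 (AT4G27670), the small heat shock protein of plastids, was at -6.13 and -6.20 on the control arrays and 0.15 and 0.16 on the salt arrays (log2 change 6.32, SE 0.09, limma adjusted p = 3.6e-07). ATHSP22.0 (AT4G10250) was at background on both control arrays and rose at least 159-fold (adjusted p = 2.6e-06).

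Genes of proline synthesis rose, and starch genes rose more often than they fell. Galactinol, sugar transporter and trehalose genes went both ways. P5CS1 (AT2G39800), the enzyme that controls proline synthesis, was at 0.22 and 0.13 on the control arrays and 3.73 and 3.63 on the salt arrays (log2 change 3.50, SE 0.09, limma adjusted p = 1.2e-06). P5CS2 (AT3G55610, 1.54), P5CR (AT5G14800, 1.35) and OAT (AT5G46180, 1.74) rose too, and so did P5CDH (AT5G62530, 1.42) of proline breakdown, while the proline dehydrogenase ERD5 had a log2 change of 0.90 and was not called. Galactinol synthases split, with GOLS2 (AT1G56600, 5.05) and GOLS4 (AT1G60470, 4.12) up-regulated and GOLS3 (AT1G09350, -1.24) down-regulated. GOLS4 had levels of -3.00 and -2.96 on the control arrays and 1.25 and 1.04 on the salt arrays, whereas GOLS1 was at 1.49 and 1.44 on the control arrays and 1.95 and 1.99 on the salt arrays and was not called. Of 26 starch genes 11 rose and 1 fell. APL3 (AT4G39210), a large subunit of ADP-glucose pyrophosphorylase, was at -0.10 and -0.02 on the control arrays and 5.20 and 4.95 on the salt arrays (log2 change 5.14, SE 0.10, limma adjusted p = 7e-07), whereas APL1 (AT5G19220), the main large subunit of leaves, was at 3.19 and 3.19 on the control arrays and 1.15 and 1.35 on the salt arrays (log2 change -1.93, SE 0.11, limma adjusted p = 1.6e-05). The groups of both genes lay apart, with APL3 high and APL1 low on the salt arrays. AMY1 (AT4G25000), an alpha-amylase, rose by 3.95. Among sugar transporters, SWEET15 (AT5G13170), a sucrose exporter known from senescing leaves, was at -1.58 and -1.54 on the control arrays and 6.27 and 5.90 on the salt arrays (log2 change 7.65, SE 0.14, limma adjusted p = 5.7e-07), and SWEET4 (AT3G28007, 5.37) rose while SUC1 (AT1G71880, -2.13) and SWEET16 (AT3G16690, -3.04) fell, SWEET16 not with normexp (-1.95). SUC2, the phloem loader of sucrose, had a log2 change of 0.58 and was not called. For trehalose metabolism the largest rise was TPPD (AT1G35910, 1.87) and the largest falls were TPPH (AT4G39770, -3.20) and TPPB (AT1G78090, -2.95), all trehalose-6-phosphate phosphatases.

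Nuclear genes of photosynthesis fell in part, and 0 of them rose in the antenna, photosystem, Calvin cycle and photorespiration lists. Down-regulated were 16 of 32 loci of photosystems and electron transport (median -1.0), 7 of 21 antenna loci (-0.88), 5 of 21 of the Calvin cycle (-0.49) and 3 of 10 of photorespiration (-0.76). PSBQ-2 (AT4G05180), a subunit of the oxygen-evolving complex, was at 5.45 and 4.95 on the control arrays and 3.25 and 2.97 on the salt arrays (log2 change -2.09, SE 0.22, limma adjusted p = 0.00029). LHCB2.3 (AT3G27690) fell by 2.83 and LHCB4.2 (AT3G08940) by 2.31, while LHCB1.1, LHCB1.2 and LHCB1.3 had log2 changes of 0.16, 0.19 and 0.17 and were not called. CP12-2 (AT3G62410), a small protein that regulates the Calvin cycle, was at 2.26 and 2.06 on the control arrays and 0.28 and 0.06 on the salt arrays (log2 change -1.99, SE 0.17, limma adjusted p = 0.00011), and PRK (AT1G32060, -1.74), phosphoribulokinase, was next. In photorespiration, which recovers carbon after oxygenation by Rubisco, HPR (AT1G68010, -1.68), GOX2 (AT3G14415, -1.67) and PGLP1 (AT5G36700, -1.56) fell. In both PSBQ-2 and CP12-2 the salt arrays lay below the control arrays with no overlap. Plastid ribosomal protein genes, among them PRPL11 (AT1G32990, -1.51) and PSRP6 (AT5G17870, -1.28), fell in 8 of 15 loci, with a median of -1.0 and none raised, while 5 fell with median scaling or quantile normalization and 10 with normexp.

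Chlorophyll synthesis genes were lowered in 11 of 22 loci and raised in 1. CHLI2 (AT5G45930), a subunit of magnesium chelatase, was at 2.32 and 2.26 on the control arrays and 0.64 and 0.47 on the salt arrays (log2 change -1.73, SE 0.10, limma adjusted p = 2.4e-05), and CHLM (AT4G25080), the next enzyme of that branch, fell by 1.68. PORA (AT5G54190), a protochlorophyllide reductase of dark-grown seedlings, rose by 1.36, which was not called with normexp, at 0.70. Genes of senescence and chlorophyll breakdown rose in 7 of 12 loci and fell in 1. SAG13 (AT2G29350), a senescence marker, was at -3.41 and -3.25 on the control arrays and 3.25 and 3.25 on the salt arrays (log2 change 6.58, SE 0.08, limma adjusted p = 3.4e-07). Chlorophyll catabolism was represented by SGR2 (AT4G11910, 2.55), ACD1 (AT3G44880, 2.08), PPH (AT5G13800, 1.66) and NYC1 (AT4G13250, 1.33). The exception was SEN1 (AT4G35770), a gene known to rise in darkened leaves, which fell. It was at 0.19 and 0.33 on the control arrays and -1.32 and -1.36 on the salt arrays (log2 change -1.60, SE 0.09, limma adjusted p = 1.8e-05).

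Nutrient genes differed by element. Of 24 iron loci 13 fell and 3 rose (median -1.26). IRT2 (AT4G19680), an iron transporter of root cells, was at -2.48 and -2.51 on the control arrays and -6.87 and -6.96 on the salt arrays (log2 change -4.42, SE 0.09, limma adjusted p = 7.6e-07). Factors of the iron deficiency response were lowered together: BHLH39 (AT3G56980) was at -1.83 and -1.71 on the control arrays and -5.67 and -5.60 on the salt arrays (log2 change -3.86, SE 0.07, limma adjusted p = 6.5e-07), and BHLH38 (AT3G56970, -3.60), BHLH100 (AT2G41240, -3.67), BHLH101 (AT5G04150, -3.30) and FIT (AT2G28160, -1.33) fell as well. FRO2 (AT1G01580), the ferric reductase of roots, fell by 1.67, and FRO3 (AT1G23020), a mitochondrial reductase, by 1.19. The rises were the ferritin FER2 (AT3G11050, 1.56), PYE (AT3G47640, 1.55), a factor that represses iron storage and transport genes, and NRAMP4 (AT5G67330, 1.13), a vacuolar iron exporter. FER1, the main leaf ferritin, was at 4.25 and 3.86 on the control arrays and 4.73 and 4.47 on the salt arrays and was not called.

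Phosphate starvation genes rose in 10 of 16 loci and fell in 1. RNS1 (AT2G02990), a ribonuclease also induced by wounding and senescence, was at -2.17 and -2.27 on the control arrays and 2.73 and 2.58 on the salt arrays (log2 change 4.88, SE 0.10, limma adjusted p = 6.9e-07). PHT1;5 (AT2G32830), a phosphate transporter of source leaves, was at -5.37 and -4.94 on the control arrays and -0.58 and -0.48 on the salt arrays (log2 change 4.63, SE 0.14, limma adjusted p = 2.1e-06), while PHT1;1 (AT5G43350), which acts in uptake by roots, fell by 1.19. Of 21 nitrogen loci 6 rose and 8 fell. NRT2.6 (AT3G45060) was at background on both control arrays and rose at least 197-fold (adjusted p = 3.5e-07). NRT1.8 (AT4G21680), which removes nitrate from xylem sap, was at -4.97 and -5.34 on the control arrays and 3.02 and 2.96 on the salt arrays (log2 change 8.15, SE 0.34, limma adjusted p = 5.8e-06). The assimilation enzymes went the other way, with NIA1 (AT1G77760, -1.62), NIR1 (AT2G15620, -1.65), GS2 (AT5G35630, -1.23) and GLU1 (AT5G04140, -1.47) lowered. NRT2.4 (AT5G60770) was at background on both salt arrays and fell at least 1.82-fold, which was not called with normexp. Sulfur genes rose in 2 of 8 loci, SDI1 (AT5G48850, 2.39) and LSU1 (AT3G49580, 1.99), both markers of sulfur deficiency.

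Among 20 loci for transport of sodium and potassium, 3 rose and 5 fell. HKT1 (AT4G10310), which retrieves sodium from the xylem, was at -4.06 and -3.81 on the control arrays and -8.87 and -7.99 on the salt arrays. Both salt values were at background, so that HKT1 fell at least 14-fold (adjusted p = 4.2e-05), and with normexp its change of -1.51 was not called. The sodium exporter SOS1 (log2 change 0.65), its regulators SOS2 (-0.73) and SOS3 (0.55) and the vacuolar exchangers NHX1 (0.90) and NHX2 (0.62) were not called. SOS1 stood at -1.87 and -2.26 on the control arrays and -1.30 and -1.54 on the salt arrays, a difference that limma gave an adjusted p of 0.017 but that stayed below 2-fold. GORK (AT5G37500), the outward potassium channel of guard cells, was at -1.62 and -1.64 on the control arrays and 0.46 and 0.47 on the salt arrays (log2 change 2.1, SE 0.08, limma adjusted p = 3.7e-06), and SKOR (AT3G02850), a channel of root xylem loading, was at -1.41 and -1.33 on the control arrays and -3.35 and -3.39 on the salt arrays (log2 change -2.0, SE 0.07, limma adjusted p = 2.9e-06). Of 21 aquaporins 9 fell and 4 rose. PIP2;5 (AT3G54820) was at -4.69 and -4.57 on the control arrays and -2.07 and -2.23 on the salt arrays (log2 change 2.48, SE 0.12, limma adjusted p = 9.8e-06), and TIP2;2 (AT4G17340), known mainly from roots, was at 4.26 and 4.01 on the control arrays and 1.7 and 1.5 on the salt arrays (log2 change -2.54, SE 0.13, limma adjusted p = 1.1e-05).

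All 19 tested genes of the cell cycle and DNA replication list fell, with log2 changes between -2.31 and -1.10 and a median of -1.59, where 18.1% of all loci fell. PCNA1 (AT1G07370), the sliding clamp of DNA polymerase, was at 0.55 and 0.46 on the control arrays and -1.81 and -1.80 on the salt arrays (log2 change -2.31, SE 0.07, limma adjusted p = 2e-06). CYCB1;2 (AT5G06150), a mitotic cyclin, was at -0.28 and -0.15 on the control arrays and -2.20 and -2.0 on the salt arrays (log2 change -1.89, SE 0.09, limma adjusted p = 1.1e-05), and MCM4 and MCM5, subunits of the replication helicase, fell by 1.34 and 1.87. Histone genes fell in 17 of 29 loci. The histone H3 gene AT1G09200 was at 3.61 and 3.56 on the control arrays and 1.73 and 1.63 on the salt arrays (log2 change -1.91, SE 0.08, limma adjusted p = 5.7e-06). HIS1-3 (AT2G18050), a linker histone known to be induced by drought and ABA, was the histone gene that rose, at -2.4 and -2.49 on the control arrays and 1.86 and 1.84 on the salt arrays (log2 change 4.3, SE 0.07, limma adjusted p = 4.3e-07). Kinesin genes fell in 8 of 17 loci and tubulin genes in 4 of 15, with none raised in either family.

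Genes of cell expansion fell in larger part than they rose. Alpha expansins, which loosen cell walls, were lowered at 11 of 18 loci and raised at 2. Their log2 changes ran from -4.284, at a locus not named here, to 3.201. EXPA14 (AT5G56320) was at -1.11 and -1.26 on the control arrays and -3.74 and -4.05 on the salt arrays (log2 change -2.71, SE 0.13, limma adjusted p = 1e-05), whereas EXPA10 (AT1G26770), an expansin of leaves, was at -0.16 and -0.28 on the control arrays and 3.07 and 2.88 on the salt arrays (log2 change 3.20, SE 0.10, limma adjusted p = 2.2e-06). EXPA7 and EXPA18, the root hair expansins, fell by 2.53 and 2.75 beside the other root hair markers, whose part in the count was not tested. Xyloglucan endotransglucosylases fell at 15 of 30 loci and rose at 6, and extensins and arabinogalactan proteins fell at 18 of 37 and rose at 6. None of the 8 cellulose synthase genes was called by limma, although 5 had an unadjusted p under 0.05, and the log2 changes lay between -0.94 and 0.26. The lowest were CESA4 (-0.94) and CESA2 (-0.93); without Sha salt replicate 2 they were called at -1.04 and -1.11, and CESA2 also without Sha control replicate 1, at -1.04.

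Cytokinin and auxin genes were lowered more often than raised. Cytokinin genes fell at 10 of 16 loci, including both breakdown enzymes and response regulators. CKX1 (AT2G41510), a cytokinin oxidase, was at -2.91 and -2.91 on the control arrays and -6.71 and -6.38 on the salt arrays (log2 change -3.64, SE 0.17, limma adjusted p = 9.6e-06), and ARR3 (AT1G59940), a type A response regulator, was at -2.65 and -2.83 on the control arrays and -5.91 and -5.96 on the salt arrays (log2 change -3.19, SE 0.09, limma adjusted p = 1.5e-06). Auxin genes fell at 14 of 32 loci. AUX1 (AT2G38120) and LAX3 (AT1G77690), which carry auxin into cells, fell by 2.28 and 2.22, while GH3.3 (AT2G23170), an enzyme that conjugates auxin to amino acids, was at -1.68 and -1.55 on the control arrays and 2.75 and 2.65 on the salt arrays (log2 change 4.31, SE 0.09, limma adjusted p = 7.7e-07). SAUR genes, many of them auxin-induced, fell at 32 of 64 loci and rose at 13, from SAUR26 (AT3G03850, -5.30) to AT4G12410 (4.24). Among gibberellin genes GA3OX2 (AT1G80340, -3.40) and GA3OX1 (AT1G15550, -1.73) of the last activating step fell, and GA2OX6 (AT1G02400, 1.91) and GA2OX2 (AT1G30040, 1.67) of inactivation rose. BAS1 (AT2G26710), which inactivates brassinosteroids, was at -1.4 and -1.30 on the control arrays and -4.78 and -4.49 on the salt arrays (log2 change -3.29, SE 0.17, limma adjusted p = 1.3e-05), while BR6OX2 (AT3G30180, 1.52), an enzyme of their synthesis, rose.

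**Figure D4:**
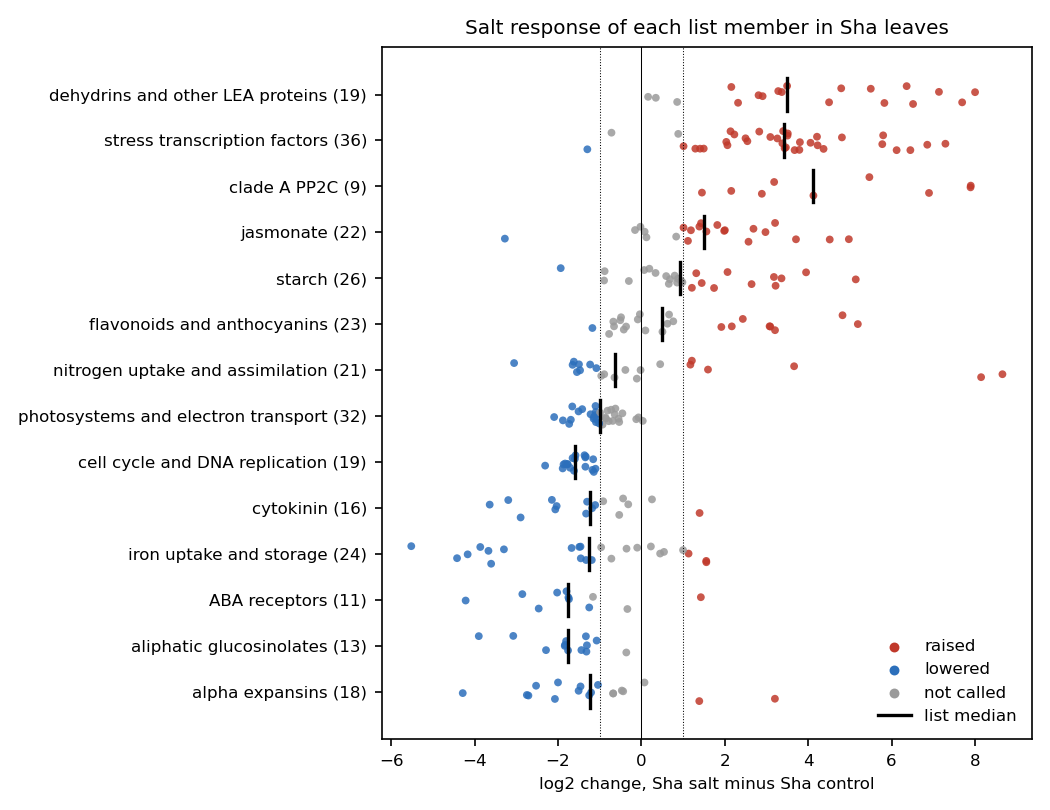
Log2 change, Sha salt minus Sha control (x axis), of every tested locus in 14 of the lists (numbers of loci in brackets), with up-regulated loci in red, down-regulated in blue and others in grey; black bars are list medians and dotted lines 2-fold. Members of the LEA list reach 8.0, all cell cycle loci lie left of -1, and the nitrogen list holds both rises and falls.

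Aliphatic glucosinolates, defence compounds made from methionine, showed the lowest median of the lists, with 12 of 13 loci lowered and 0 raised. MYB28 (AT5G61420), a main activator of the pathway, was at -0.82 and -0.66 on the control arrays and -3.09 and -2.97 on the salt arrays (log2 change -2.29, SE 0.10, limma adjusted p = 7.9e-06). CYP79F2 (AT1G16400), of the first core step, was at -2.23 and -2.23 on the control arrays and -6.31 and -5.96 on the salt arrays (log2 change -3.90, SE 0.13, limma adjusted p = 2.6e-06), and MAM3 (AT5G23020), of chain elongation, fell by 3.07. MYB29 (-0.36) was the member that was not called, and MAM1 (-1.07) was not called with median scaling. The indole branch had 2 of 10 loci lowered, CYP79B3 (AT2G22330, -1.36) and SUR1 (AT2G20610, -1.05), and 1 raised, MYB122 (AT1G74080, 1.4); SUR1 was not called with median scaling (-0.97) or without Sha salt replicate 2 (-0.99). In the flavonoid list 8 of 23 loci rose and 1 fell, and the rises were of late anthocyanin genes and their activators. PAP2 (AT1G66390), an activating MYB factor, was at -5.85 and -6.20 on the control arrays and -0.72 and -0.95 on the salt arrays (log2 change 5.19, SE 0.21, limma adjusted p = 4.8e-06), and PAP1 (AT1G56650) rose by 4.82. UF3GT (AT5G54060, 3.20), TT8 (AT4G09820, 3.09), DFR (AT5G42800, 3.07) and LDOX (AT4G22880, 2.43) rose as well, whereas chalcone synthase TT4 (-0.09), TT5 (-0.51) and F3H (0.10) of the early steps were not called.

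Jasmonate genes rose at 16 of 22 loci and fell at 1. JAZ7 (AT2G34600) and JAZ8 (AT1G30135), repressors that jasmonate itself induces, were the largest rises. JAZ7 was at -4.58 and -4.34 on the control arrays and 0.52 and 0.50 on the salt arrays (log2 change 4.97, SE 0.11, limma adjusted p = 8.3e-07). PDF1.2 (AT5G44420), a defensin of the jasmonate and ethylene branch, was at 0.79 and 0.85 on the control arrays and -2.41 and -2.50 on the salt arrays (log2 change -3.27, SE 0.09, limma adjusted p = 1.3e-06). Of 15 salicylic acid loci 3 rose and 2 fell, with FMO1 (AT1G19250, 2.92), which acts in systemic resistance, the largest rise, and ALD1 (AT2G13810, -2.46), of the same pathway, and WRKY70 (AT3G56400, -2.33) the falls. PR1, the usual marker of the salicylic acid response, had a log2 change of -0.06 (adjusted p = 0.68) and was not called.

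Large families of defence and detoxification held both rises and falls. UDP-glucosyltransferase genes, which attach sugars to hormones and other small molecules, rose at 23 of 54 loci and fell at 9 (4 with normexp), with a median of 0.59. UGT73C7 (AT3G53160) was at -5.53 and -5.45 on the control arrays and 0.62 and 0.69 on the salt arrays (log2 change 6.14, SE 0.07, limma adjusted p = 3.4e-07). Glutathione S-transferase genes, whose products conjugate glutathione to toxic compounds, rose at 15 of 47 loci and fell at 11. GSTU4 (AT2G29460) was at -2.09 and -2.48 on the control arrays and 1.97 and 1.83 on the salt arrays (log2 change 4.18, SE 0.18, limma adjusted p = 6.5e-06), and GSTU3 (AT2G29470, 3.97) followed, while GSTU23 (AT1G78320, -3.02) and ATGSTF13 (AT3G62760, -2.46) had the largest falls. The salt arrays of GSTU4 were well above its control arrays. Cytochrome P450 genes fell at 61 of 180 loci and rose at 41, and 38 of the falls were called with normexp. CYP81D8 (AT4G37370) was at -4.21 and -4.14 on the control arrays and 2.4 and 2.37 on the salt arrays (log2 change 6.56, SE 0.07, limma adjusted p = 2.5e-07). Cysteine-rich receptor-like kinases, which sit in the plasma membrane and respond to pathogens and reactive oxygen, fell at 11 of 25 loci (6 with normexp) and rose at 4. CRK36 (AT4G04490) was at -5.95 and -5.94 on the control arrays and -1.33 and -1.31 on the salt arrays (log2 change 4.62, SE 0.06, limma adjusted p = 3.5e-07), whereas CRK4 (AT3G45860) fell by 4.39, which was not called with normexp.

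Antioxidant enzyme genes rose at 6 of 28 loci and fell at 4. APX2 (AT3G09640), a cytosolic ascorbate peroxidase known from heat and strong light, was at -5.20 and -5.05 on the control arrays and -0.79 and -0.82 on the salt arrays (log2 change 4.32, SE 0.08, limma adjusted p = 5.4e-07), and TAPX (AT1G77490), the thylakoid form, was at 1.82 and 1.88 on the control arrays and -0.20 and -0.26 on the salt arrays (log2 change -2.08, SE 0.09, limma adjusted p = 5.8e-06). CSD1 (AT1G08830) and CSD2 (AT2G28190), copper/zinc superoxide dismutases, rose by 1.2 and 1.27, and FSD1 (AT4G25100), an iron superoxide dismutase, fell by 1.24. In the list of the glyoxylate cycle, fermentation and aldehyde dehydrogenases 7 of 10 loci rose and 0 fell. ADH1 (AT1G77120), alcohol dehydrogenase, was at -1.21 and -1.08 on the control arrays and 2.96 and 2.96 on the salt arrays (log2 change 4.11, SE 0.10, limma adjusted p = 9.1e-07), and ALDH7B4 (AT1G54100) rose by 3.46. Of 8 loci for branched-chain amino acid breakdown, BCAT-2 (AT1G10070, 4.00) and IVD (AT3G45300, 1.04) rose, the latter not without Sha control replicate 2 (0.998) or Sha salt replicate 1 (0.99). Of 26 wax, cutin and suberin loci 4 rose and 9 fell, with CER1 (AT1G02205, 2.76) of alkane synthesis and CER4 (AT4G33790, -1.98) of primary alcohol synthesis at the ends. Autophagy genes of the ATG8 family rose at 2 of 9 loci, ATG8B (AT4G04620, 1.17) and ATG8H (AT3G06420, 1.06), with 4 called under median scaling, and 0 of the 21 proteasome subunits was called by limma, 4 having an unadjusted p under 0.05, with a median log2 change of -0.07.

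Among clock genes 4 of 15 rose and 0 fell, namely ELF4 (AT2G40080, 2.81), PRR5 (AT5G24470, 2.23), LUX (AT3G46640, 1.38) and TOC1 (AT5G61380, 1.21), which are known to peak late in the day or in the evening. The morning genes CCA1 (0.60) and LHY (0.32) were not called. All samples were taken at 1 time of day, 2 h after dawn, per the methods. Flowering regulators included CO (AT5G15840, 2.23), LFY (AT5G61850, 2.05) and FUL (AT5G60910, 1.83), which rose, and FT (AT1G65480, -2.08), the mobile flowering signal, which fell. FT was at -4.26 and -3.99 on the control arrays and -6.31 and -6.10 on the salt arrays, and neither it nor LFY was called with normexp, at -0.91 and 1.08.

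Markers of other cell types moved with some of these results. Root hair markers fell at 8 of 9 loci, and their summed signal was between 6.55 and 6.97 times the 75th percentile on the control arrays and between 1.48 and 1.53 on the salt arrays. COBL9 (AT5G49270), a root hair protein, was at 0.74 and 0.80 on the control arrays and -2.03 and -2.06 on the salt arrays (log2 change -2.82, SE 0.10, limma adjusted p = 3.2e-06). Root markers fell at 5 of 10 loci, all of them CASP genes of the endodermal barrier, and rose at 1, WOX5 (AT3G11260), with summed signals of 58.5 to 67.6 and 38.8 to 47.0. CASP1 (AT2G36100) was at 2.17 and 2.16 on the control arrays and -0.41 and -0.41 on the salt arrays (log2 change -2.58, SE 0.07, limma adjusted p = 1.2e-06), and PYK10, a glucosidase of roots and seedlings, was at 5.86 and 5.62 on the control arrays and 5.46 and 5.16 on the salt arrays and was not called. No root or root hair marker was at background on any of the 4 arrays. Trichome markers fell at 3 of 3 loci, GL2 (AT1G79840, -1.43), TRY (AT5G53200, -1.30) and GL1 (AT3G27920, -1.75), with summed signals of 0.760 and 0.777 against 0.294 and 0.293. Guard cell markers fell at 1 of 4 loci, MYB60 (AT1G08810, -2.64), vasculature markers at 1 of 4, XCP1 (AT4G35350, -1.56), and shoot meristem and flower markers at 1 of 4, AG (AT4G18960, -2.07), the last not called with normexp. Mesophyll markers fell at 1 of 5, CA1 (AT3G01500), a carbonic anhydrase, which was at 6.32 and 5.99 on the control arrays and 3.38 and 3.33 on the salt arrays (log2 change -2.80, SE 0.15, limma adjusted p = 1.7e-05). The part of the root and root hair markers in the falls of iron, expansin, aquaporin, transporter and trichome marker genes was not tested.

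The size of the response differed between Sha and Ler at 2995 probes (8.8%) when tested as a difference of differences in limma, with a higher log2 change in Sha at 1688 (4.96%) and a lower one at 1307 (3.84%). After normexp background correction 562 probes were called. By locus, 826 (3.9%) were higher and 965 (4.55%) lower in Sha. Of the 12 largest rises, 9 were called further raised in Sha than in Ler and 0 less, 6 of the 9 also with normexp. The 12 were chosen by their change in Sha, which is part of this difference, so the count leans to Sha by choice. The additional rise was 1.45 on the log2 scale for LTP4, 2.14 for TSPO and 1.99 for NATA1, and between 1.35 and 2.02 for LTP3, CSLG2, AT5G50360, AT2G35070 and AT3G17520. For AT5G05220, the remaining one, the Ler control arrays were at background, so that no size is given. The genes with a size given were all lower on the Sha than on the Ler control arrays. NATA1 was at -5.46 and -5.3 on the Sha and -2.12 and -2.14 on the Ler control arrays. On salt it was lower in Sha, at 3.68 and 3.53 against 4.88 and 4.83 in Ler. CSLG2 was not higher in Sha on salt either, while the others with a size were. These levels are compared across slides. The differences of -0.23 for BSMT1 and 0.12 for IRT1 were not called. Iron genes differed at 8 of 24 loci (4 with normexp), against 8.45% of all loci. BHLH100 fell in Sha and had a log2 change of 0.15 in Ler, a difference of -3.82 (limma adjusted p = 8.4e-05). Its relatives BHLH38, BHLH39 and BHLH101 also fell further in Sha, with differences of -2.22, -1.96 and -1.14, of which the last 2 were not called with normexp. NAS2, a nicotianamine synthase, fell less in Sha, by 4.17 against a log2 change of -5.36 in Ler, which was not called with normexp either. Alpha expansins had 9 of 18 loci with a lower log2 change in Sha (4 with normexp) and 0 with a higher one, and 5 of 9 root hair markers (2 with normexp), EXPA7 and EXPA18 among the 5, did so too.

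Vegetative storage protein genes, which respond to jasmonate and wounding, rose far less in Sha. VSP2 was at 0.88 and 0.97 on the control arrays and 2.58 and 2.62 on the salt arrays in Sha and at -2.26 and -2.22 on the Ler control arrays and 4.76 and 4.63 on the Ler salt arrays (difference of the log2 changes -5.26, SE 0.11, adjusted p = 7.7e-05). VSP1 was at 2.29 and 2.37 on the control arrays and 3.40 and 3.28 on the salt arrays in Sha and at -0.58 and -0.72 on the Ler control arrays and 4.53 and 4.49 on the Ler salt arrays (difference -4.15, adjusted p = 0.0001). VSP1 was up-regulated in Sha at this 1 of its 4 probes, and the other 3 had log2 changes of 0.24 to 0.37 that were not called, while both probes of VSP2 were up-regulated. At the probes given, the Sha control arrays were thus above the Ler control arrays for both genes, and the Sha salt arrays below the Ler salt arrays. These levels are compared across slides, since the ecotypes did not share any. AOC2 (AT3G25770), an allene oxide cyclase of jasmonate synthesis, moved in opposite directions, from -2.65 and -2.67 to -0.58 and -0.77 in Sha against a log2 change of -1.65 in Ler (difference 3.64, adjusted p = 0.00014). CRU3 was at -2.11 and -1.90 on the control arrays and -2.15 and -1.91 on the salt arrays in Sha and at -8.53 and -8.67 on the Ler control arrays and -1.7 and -1.74 on the Ler salt arrays. Only the Ler control arrays stood apart for CRU3, far below the other 6 and at background, so that no size is given for the difference.

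**Figure D5:**
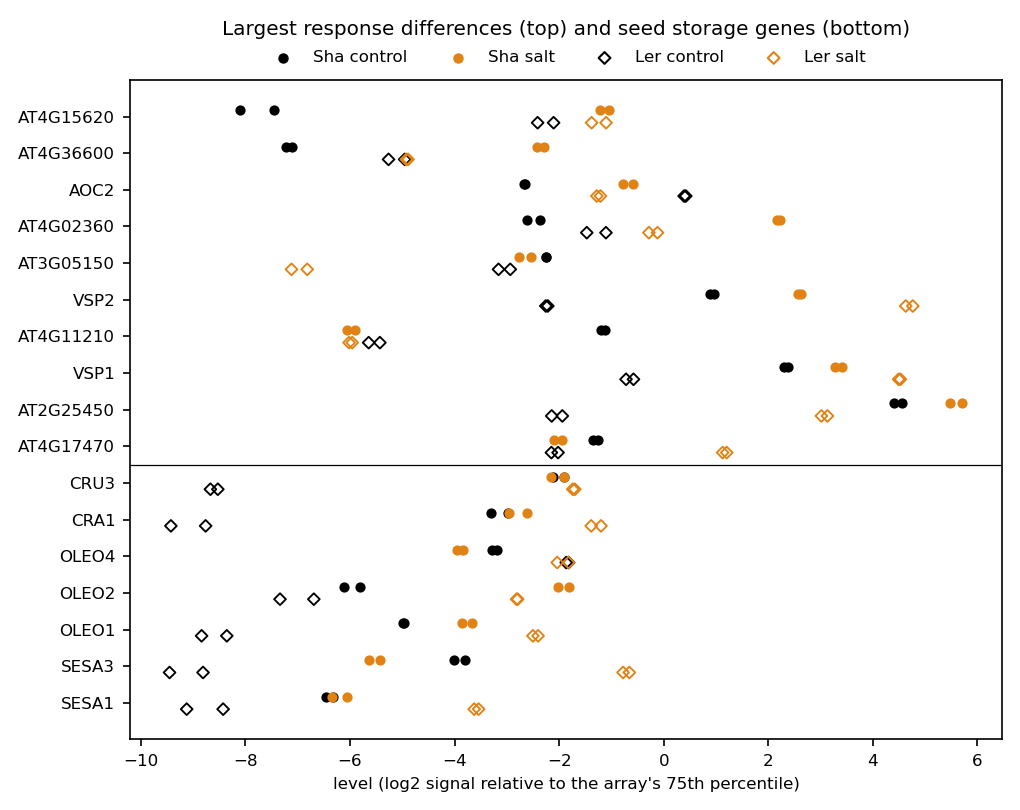
Level on each of the 8 arrays (x axis, log2 signal relative to the array's 75th percentile) for the 10 genes with the largest differences between the Sha and Ler salt responses, of probes whose signal passed the background mark on each of the 8 arrays (top), and the 7 seed storage and oil body genes (bottom); filled circles are Sha, open diamonds Ler, black control, orange salt, with 2 arrays for each. For CRU3 the 4 Sha arrays lie between -2.15 and -1.90, while the Ler arrays span -8.67 to -1.70.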

How the data were processed

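RNA from leaves was labelled with Cy3 and hybridized to 8 one-colour Agilent Arabidopsis 4 arrays, 2 for each of Sha control, Sha salt, Ler control and Ler salt, which the labels call biological replicates. The deposited intensity values are the processed signals of Agilent Feature Extraction 10.7.1.1, background-subtracted by that software per the file headers and not normalized between arrays. The authors then used GeneSpring with a p-value limit of 0.01 and a fold limit of 2, and the test they ran is not given in the sources used here. The deposited value table of the series, also in intensity units, differed from the scanner values by 0, so it gave no separate result. No aligner applies, and the array design's genome build differs from that of the annotation, so no coordinates are given.

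Here 31 probes with outlier flags were left out of 43603, repeated spots were averaged, and log2 of the processed signal minus each array's 75th percentile was fitted with limma 3.58.1 in R 4.3.3 (lmFit and eBayes, 8 arrays as 4 groups, 4 residual and 2.04 prior degrees of freedom). Data were simulated over 34020 probes for the salt comparison in Sha. Of these, 100 were changed by 1.5 on the log2 scale and 100 by 2. Recovered were 78% and 87% of them, and 5 unchanged probes were called. A far larger share of probes was called in the real data, and adjusted p depends on that share. The recovery there can therefore differ. A probe at background on both arrays of a group gives only a limit: the brighter group's mean was set against the lowest signal well above background, or the probe's own where higher. Probes were named through RefSeq accessions and the TAIR10.1 annotation, and 34263 of 43572 matched a locus. With 2 arrays a group, their number limits the precision. Control and salt of 1 replicate number shared a slide per the file headers, and their deviations from the group means correlated (0.51 in Sha and 0.22 in Ler).

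Genes named were the 12 largest rises and 12 largest falls with signal well above background on all Sha arrays, 6 limits in each direction, the 5 largest ecotype differences each way among probes past the background mark on all 8 arrays, the 3 highest signals of each group, and marker genes. Further genes were drawn from the 2 largest rises and falls of each list and from the members of lists of up to 15 loci. Not all of these list and marker genes are named, so the largest rise or fall of a list can be missing from the text. Members and lists were chosen with earlier results of these data known. Named after their values had been seen were BHLH38, BHLH39, BHLH100, BHLH101, FIT, FRO2, FRO3, FER1, FER2, NRAMP4, NAS2, COR47, ERD14, HIRD11, EM1, EM6, CSD1, CSD2, FSD1, DFR, LDOX, UF3GT, TT4, TT5, TT8, F3H, NIA1, GS2, GLU1, LHCB1.1, LHCB1.2, LHCB1.3, MCM4, MCM5, SOS1, SOS2, SOS3, NHX1 and NHX2. Alternatives covered normalization (quantile, median), normexp background correction with an offset of 50, filters, variance models, blocks for replicate number, slide and scan day, and each array left out.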

Additional observations from a re-analysis of the deposited data

Results flagged for a closer look

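The salt response differed between Sha and Ler, by the test of the difference itself, at 2995 probes, and values for some of the named genes follow as the log2 change in Sha minus that in Ler. The first 10 are the 5 largest in each direction among probes past the background mark on all 8 arrays. Higher in Sha were AT4G15620 (5.64), annotated as CASP-like protein 1E2, AT4G36600 (4.61), AOC2 (3.64), AT4G02360 (3.6) and AT3G05150 (3.52). AT4G15620 was at -7.46 and -8.11 on the control arrays and -1.05 and -1.21 on the salt arrays in Sha and at -2.41 and -2.11 on the Ler control arrays and -1.38 and -1.10 on the Ler salt arrays, so that the Sha control arrays alone stood apart. AT3G05150 differed through Ler, with a log2 change of -0.40 in Sha that was not called and of -3.92 in Ler.

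Lower in Sha were VSP2 (-5.26), AT4G11210 (-4.37), VSP1 (-4.15), AT2G25450 (-4.00) and AT4G17470 (-3.97). AT4G11210 was at -1.13 and -1.21 on the control arrays and -6.06 and -5.91 on the salt arrays in Sha and at -5.43 and -5.64 on the Ler control arrays and -5.96 and -6.02 on the Ler salt arrays, where again the Sha control arrays alone stood apart. AT2G25450 was at 4.55 and 4.41 on the control arrays and 5.71 and 5.48 on the salt arrays in Sha and at -2.14 and -1.94 on the Ler control arrays and 3.13 and 3.02 on the Ler salt arrays. Its signal was higher in Sha in both conditions, a comparison across slides.

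Of the 12 genes that rose most with salt in Sha, LTP4 (1.45), CSLG2 (1.5), AT5G50360 (1.90), AT2G35070 (1.35), NATA1 (1.99), AT3G17520 (1.63), TSPO (2.14) and LTP3 (2.02) rose further in Sha than in Ler. These 12 were chosen by their change in Sha, which is part of the difference. The genes just named were all lower on the Sha than on the Ler control arrays. On the salt arrays NATA1 and CSLG2 were not higher in Sha, while the others named were, a comparison across slides. Among iron genes the difference was -3.82 for BHLH100, -2.22 for BHLH38, -1.96 for BHLH39, -1.14 for BHLH101 and 1.19 for NAS2. With normexp background correction the differences of AT4G11210, AT3G05150, AT4G36600, LTP4, CSLG2, AT2G35070, BHLH39, BHLH101 and NAS2 were not called.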

How the results depend on the processing

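Without a fold limit, 10530 probes were up-regulated, 12273 were down-regulated and 8309 differed between the ecotypes, against 5054, 5577 and 2995 with it. With 1 probe per locus the counts were 2985 up-regulated and 1791 different, and with normexp 3454 up-regulated, 3434 down-regulated and 562 different. Leaving out 1 array at a time gave 4760 to 5352 up-regulated, 5452 to 5602 down-regulated and 2399 to 3338 different probes; an arm left with 1 array is assumed to vary like the others. With the replicate block, in which both ecotypes shared a term for the replicate number, the counts were 5130, 5608 and 3507. With the slide as a block they were 5148, 5611 and 3673. No named call was lost under either block, and scan day gave the same counts as slide. An equal-variance test of each probe at an unadjusted p under 0.01 gave 3545 and 4073. The up-regulated share of the calls was 47.5% and lay between 45.9% and 51.7%. Of 329 named and called changes in Sha, 259 were called under every alternative and 0 changed direction, while 40 were not called with normexp, 37 under the equal-variance test, 6 with median scaling and at most 4 without any single array. Counting only lists with at least 3 calls in a direction, of 71 lists normexp moved the down-regulated count of 8 by more than 1.5 times and the up-regulated count of 0; the causes were not tested. Signals near background limit the smallest levels, and 4 arrays limit the error of each change.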
